A study of Rattus norvegicus with 4 samples.

Results

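Matrix metalloproteinases are zinc enzymes that cut the proteins of the extracellular matrix, and the tissue inhibitors of metalloproteinases (TIMPs) are small secreted proteins that block them. This account covers 10 of their genes, Mmp2, Mmp9, Mmp11, Mmp13, Mmp14, Mmp16, Mmp19, Timp1, Timp2 and Timp3, in rat granulosa cells with and without knockdown of Runx2. Members were all probe sets (groups of short probes that together measure a transcript) to which the array's annotation gives one of these names and no other. That made 17 of the 31042 probe sets that are not array controls, and 10 of the 14217 genes with a name of their own on the array. The granulosa cells, which surround the oocyte and make steroids, came from immature female Sprague Dawley rats aged 27 days and given the gonadotropin PMSG for 48 h. All cultures were kept in a reduced-serum medium with insulin, transferrin and selenium, and all received 10 µM forskolin, which raises cAMP, for 48 h. The groups differed in a transfected siRNA at 20 nM, either against Runx2 or a universal negative control, with 2 cultures and 2 arrays each. Knockdown was by transient transfection of primary cells.

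Most metalloproteinases are made as inactive precursors and are activated by other proteases, some of them by metalloproteinases held in the cell membrane. TIMPs bind the active site, and Timp2 also helps membrane metalloproteinases to activate the gelatinase Mmp2. In the ovary these enzymes and inhibitors take part in the remodelling of the follicle wall around ovulation and in the growth and regression of the corpus luteum. Runx2 is a transcription factor of bone and cartilage, where Mmp13 is a textbook target.

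Each array had been scaled by the authors to a trimmed mean signal of 500 in MAS5, which summarises the perfect-match probes of a probe set after subtracting their mismatch probes, and the small number of arrays limits the precision of every value. The second Runx2 siRNA array stood apart: its spike-in transcripts were at 1.72 times the control mean (0.952 on the first), and its actin 3' to 5' ratio was 1.71 against 1.42 to 1.45 elsewhere. No probe set is paired with Runx2 itself in the probe table used, so the depth of the knockdown was not analysed here and the groups rest on their labels. Signals of different probe sets depend on the probes, so no gene's level is set against another's.

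With Runx2 siRNA the collagenase Mmp13 had a mean signal 0.249 times that of the control, the largest difference among the tested members, while Mmp14 and Mmp19 were lower by smaller amounts and Mmp11 was higher. No TIMP probe set had an unadjusted p under 0.05. Of the 17 probe sets, 14 had a mean signal over the 4 arrays above 78.6, the limit set to leave out the dimmest 40% of all probe sets, and were tested with limma on log2(signal + 16). The other 3, both probe sets of Mmp9 and the dimmer of Mmp2, lay below it on every array and are given as values with no test. None of the 14 passed after Benjamini-Hochberg adjustment over all 18625 probe sets tested (adjusted p from 0.317 to 0.983), where 0% passed by limma and 2225 had an unadjusted p under 0.05.

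At that unadjusted level, 4 of the 14 were lower with Runx2 siRNA, namely Mmp13, Mmp19 and both probe sets of Mmp14, where 5.49% of all probe sets tested were. A single one, Mmp11, was higher, where 6.45% of all were. Probe sets of the same gene are not independent, and by gene 3 of the 9 tested were lower. Over all, 5.94% of 10017 genes were lower by their brightest probe set. Both Runx2 siRNA arrays lay below both control arrays in 5 of the 14, against 18.5% of all, and above them in 1, against 28.8% of all. A difference of at least 2-fold with such separate groups was seen in Mmp13 alone, on the lower side where 0.821% of all probe sets lay, and in 0 members on the higher side, where 0.349% lay. The median difference of the 14 was -0.16, against 0.05 over all tested. Without the first control array 3 in place of 5 members had an unadjusted p under 0.05, Mmp13 and the dimmer Mmp14 probe set lower and a Timp3 probe set higher, where 4.62% in place of 11.9% of all probe sets had one. Without the second control array Mmp16 differed by 1.09. That fit has 1 control array, so groups lie apart more easily and it is not set beside the shares above. In this bulk RNA, a lower signal from fewer cells of a kind and from less RNA per cell cannot be told apart. The series description calls the cultures separate, and the titles give only a replicate number, so p-values measure the spread between these arrays.

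**Figure D1:**
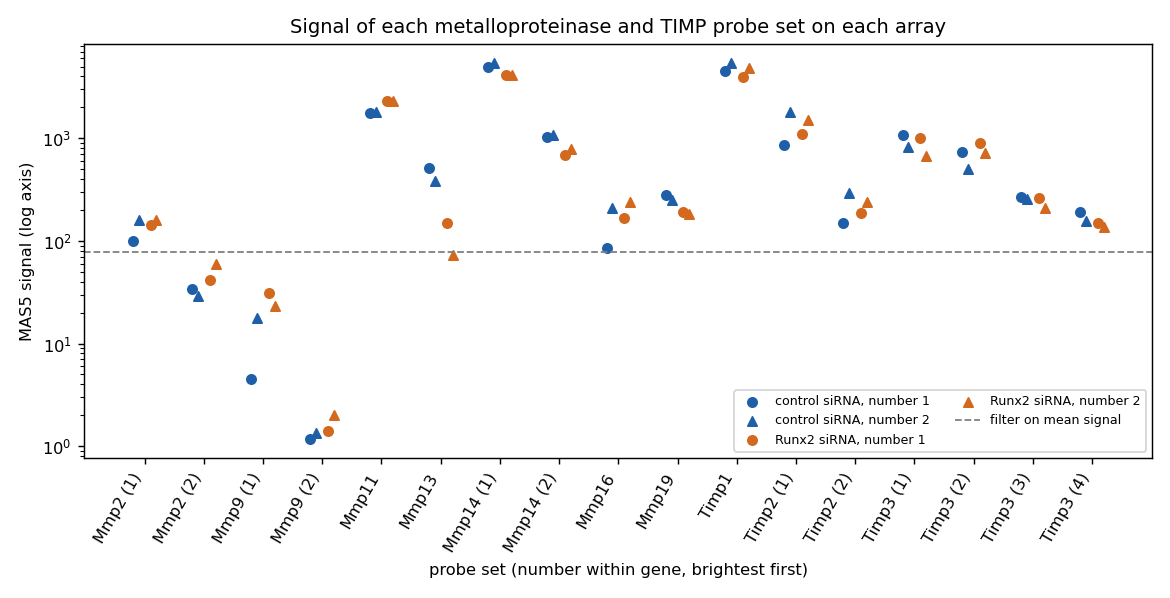
MAS5 signal, on a log axis, of the 17 probe sets on each of the 4 arrays, with circles and triangles for the arrays numbered 1 and 2 and the dashed line at a mean signal of 78.6. Mmp13 is the member whose Runx2 siRNA arrays (150.9 and 73.4) lie farthest below its control arrays (513.7 and 386.9), and both Mmp9 probe sets lie under the line on every array.

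**Figure D2:**
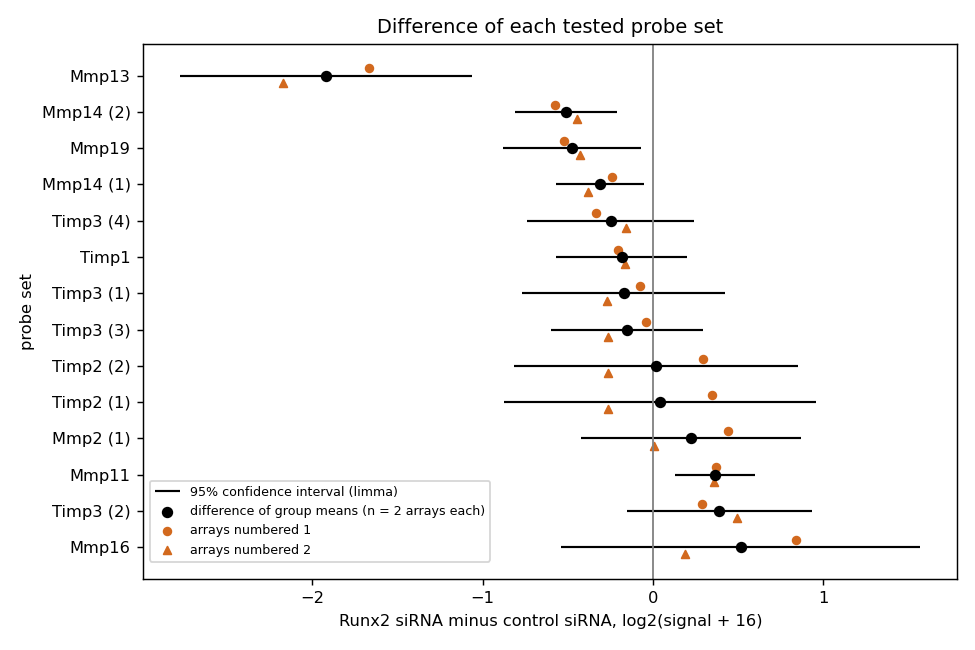
Difference between Runx2 siRNA and control siRNA on the log2(signal + 16) scale for the 14 tested probe sets, as the difference of group means with its 95% confidence interval by limma and as the separate differences of the arrays numbered 1 and 2. Mmp13 lies at -1.92, apart from the other members, which run from -0.51 to 0.52.

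Mmp13 encodes a collagenase that cuts fibrillar collagen and is strongly made by hypertrophic cartilage and bone cells. Its only probe set read 513.7 and 386.9 on the control arrays and 150.9 and 73.4 on the Runx2 siRNA arrays. The groups did not overlap, and the lower of the Runx2 siRNA signals was under the 78.6 used as the limit for dim probe sets. Mean signal was 450.3 ± 89.6 with control siRNA and 112.1 ± 54.8 with Runx2 siRNA (SD, n = 2 arrays each), 4.02-fold higher in the control. On the log2(signal + 16) scale, which understates changes of dim transcripts, the difference was -1.92 ± 0.34 (SE), with a 95% confidence interval from -2.77 to -1.06. That is the 14th lowest of the 18625 differences, with an unadjusted p of 0.00194 and an adjusted p of 0.317 by limma. It was lower in both same-numbered comparisons, by -1.67 in number 1 and by -2.17 in number 2. The lowest value came from the second Runx2 siRNA array, the one with the high spike-ins, and without it the difference was -1.47. Over the alternatives without a replicate term, the adjusted p ran from 0.166 to 0.616.

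The start region of Mmp13 is shown because the gene had the largest difference and its window holds letters that Runx and AP-1 factors are known to bind. RefSeq windows of 300 bases, from 250 before to 50 after the gene's start on the GRCr8 build, were at hand for 5 of the 10 members: Mmp11, Mmp13, Timp1, Timp2 and Timp3. They were searched on both strands for TGTGGT (reverse ACCACA), the core of the Runx motif, and for TGANTCA, the AP-1 motif of the Fos and Jun proteins. Mmp13 held each of them a single time and the other 4 windows held neither. Over all 33469 windows of this length 17.3% held the Runx letters, 7.33% the AP-1 letters and 1.33% both. In Mmp13 the Runx letters, on the reverse strand, begin 149 bases before the RefSeq start and the AP-1 letters begin 66 bases before it. The stretch of 115 bases around them, chr8:12782665-12782779 on the plus strand, lies upstream of the gene, and the same span of Mmp11, chr20:12730120-12730234 on the plus strand, is set beside it as the window of the member that lay higher. Capitals mark the matches.
Mmp13: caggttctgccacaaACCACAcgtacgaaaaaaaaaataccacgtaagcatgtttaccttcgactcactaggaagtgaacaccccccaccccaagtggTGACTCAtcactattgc
Mmp11: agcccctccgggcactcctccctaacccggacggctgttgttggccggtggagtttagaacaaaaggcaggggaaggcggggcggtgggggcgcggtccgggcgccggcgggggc
The Mmp13 window had a G and C content of 45.3%, below the median of 51.7% over all windows. The other 4 were above it, with 61.3% for Timp1, 68.0% for Mmp11, 68.7% for Timp3 and 70.3% for Timp2. A match is a description of the letters and does not show that a factor binds there. Mmp14 and Mmp19, also lower with Runx2 siRNA, had no window at hand, so a link of letters with direction was not tested.

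Mmp13 stands at the end of a row of metalloproteinase genes on rat chromosome 8, followed in the RefSeq annotation by Mmp12, Mmp1b, Mmp3, Mmp1, Mmp10, Mmp8, Mmp27, Mmp20 and Mmp7. Of these neighbours 5 are named on the array: the elastase Mmp12, the stromelysins Mmp3 and Mmp10, the neutrophil collagenase Mmp8 and the matrilysin Mmp7. All 5 were below 78.6 on every array, with a highest signal of 63.7 for Mmp10, so none of them entered the test. Mmp13 was thus the only gene of this row with a tested probe set.

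The 5 genes whose values over the 4 arrays lay nearest to Mmp13, by Euclidean distance after centring each on its mean, were Ptafr, Cxcl14, Sema3d, Gulp1 and Tmem100, at distances of 0.150 to 0.355 on the log2 scale. Such a likeness over 4 arrays is a description, and several of these genes were known from earlier results to be far lower with Runx2 siRNA. Gulp1, an adaptor for the uptake of apoptotic cells, read 4617 and 2769 with control siRNA and 1565 and 757.4 with Runx2 siRNA. Sema3d, a secreted semaphorin, read 1973 and 1207 against 623.3 and 260.2. In both, as in Mmp13, the second array of each group was the lower, which the choice by nearness to Mmp13 itself favours. The Ptafr probe set ranked nearest was dim, with a mean signal of 80.74 over the 4 arrays, close to the limit of 78.6. Its Runx2 siRNA signals, 34.54 and 10.98, lay under that limit, as did those of Cxcl14, 56.1 and 32.46. A second, brighter probe set of Ptafr, with a mean signal of 648.7, differed by -0.92, against -2.04 for the nearest one. The second probe sets of Cxcl14 and Tmem100 were too dim to test.

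Of the metalloproteinases that are anchored in the membrane, Mmp14 was lower and Mmp16 did not separate the groups. Mmp14 cleaves collagen at the cell surface and activates the Mmp2 precursor. Its brighter probe set read 4929 and 5373 with control siRNA and 4176 and 4122 with Runx2 siRNA, a difference of -0.31 ± 0.10 (SE; 95% confidence interval -0.57 to -0.05; unadjusted p = 0.0274, adjusted p = 0.386 by limma). Its dimmer probe set read 1025 and 1068 against 682.7 and 779.5, a difference of -0.51 ± 0.12 (-0.81 to -0.21; unadjusted p = 0.00647, adjusted p = 0.346). In both probe sets all Runx2 siRNA values lay below all control values, and the probe sets agree in direction. The dimmer one kept an unadjusted p under 0.05 in all 12 alternatives run, from -0.60 to -0.42, and the brighter one in 9 of them.

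Mmp16, a relative of Mmp14 that also activates Mmp2, read 86.2 and 209.6 with control siRNA and 167.0 and 241.6 with Runx2 siRNA. The groups overlapped, and the first control array was the lowest of the 4 by a wide margin. The difference was 0.52 ± 0.42 (SE), with an interval from -0.54 to 1.57 (adjusted p = 0.608). Without that first control array the difference was -0.055.

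The gelatinases, which cut denatured collagen and the type IV collagen of basement membranes, gave low signals. The brighter Mmp2 probe set read 100.6 and 158.1 with control siRNA and 142.6 and 158.6 with Runx2 siRNA, with a difference of 0.22 ± 0.26 (SE; interval -0.42 to 0.87, adjusted p = 0.718). The arrays numbered 2 were nearly equal and the first control array was again the lowest. The dimmer Mmp2 probe set read 34.2 and 29.1 against 42.0 and 59.8, and the brighter Mmp9 probe set 4.55 and 17.7 against 30.8 and 23.2. In each of these dim probe sets the Runx2 siRNA arrays were the higher, at signals below the limit for the test. The share of all dim probe sets that were higher in this way was not computed. With no filter the median difference over all 31042 probe sets was 0.10, against 0.05 over those tested. Quantile scaling took the dimmer Mmp2 probe set from 0.48 to 0.21 and the brighter Mmp9 one from 0.70 to 0.52. The second Mmp9 probe set stayed between 1.17 and 2.03 on all arrays, so Mmp9 had no probe set above the limit.

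Mmp11, also called a stromelysin, is activated inside the cell and cuts serpins rather than major matrix proteins. It read 1771 and 1814 with control siRNA and 2295 and 2333 with Runx2 siRNA. Values within a group were close and the groups were apart, with means of 1793 ± 30.4 and 2314 ± 27.4 (SD, n = 2 each). The difference was 0.37 ± 0.09 (SE; 95% confidence interval 0.13 to 0.60; unadjusted p = 0.00990, adjusted p = 0.353 by limma), 1.29-fold by mean signal. The same-numbered comparisons gave 0.37 and 0.36. With the first or the second control array left out the unadjusted p was above 0.05, although the value stayed between 0.35 and 0.40 in all 12 alternatives.

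Mmp19, a metalloproteinase of vessel walls and of the ovary that cuts basement membrane proteins, went the other way. Signals were 279.8 and 251.0 with control siRNA and 190.4 and 182.6 with Runx2 siRNA, again without overlap. The difference was -0.47 ± 0.16 (SE; interval -0.88 to -0.07; unadjusted p = 0.0299, adjusted p = 0.388 by limma). Leaving out any single array took the unadjusted p above 0.05, while the value stayed between -0.58 and -0.39.

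Among the inhibitors, 7 probe sets of 3 genes were tested, with unadjusted p from 0.127 to 0.960. Timp1, which is induced by gonadotropins in granulosa cells and inhibits most soluble metalloproteinases, read 4562 and 5436 with control siRNA and 3960 and 4853 with Runx2 siRNA. The groups overlapped, yet the Runx2 siRNA array was the lower in both same-numbered comparisons, by -0.20 and -0.16. The overall difference was -0.18 ± 0.15 (SE; interval -0.57 to 0.20; adjusted p = 0.614).

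Timp2, an inhibitor that also serves as a bridge between Mmp14 and the Mmp2 precursor, read 862.9 and 1807 with control siRNA and 1103 and 1505 with Runx2 siRNA in its brighter probe set. Its dimmer probe set gave 150.0 and 291.1 against 187.7 and 240.3. In both, the Runx2 siRNA arrays lay between the control arrays, so the same-numbered comparisons had opposite signs, 0.35 and -0.26 in the brighter and 0.30 and -0.26 in the dimmer. The differences were 0.04 ± 0.36 and 0.02 ± 0.33 (SE), with intervals from -0.87 to 0.96 and from -0.82 to 0.85, and the dimmer one was negative under quantile (-0.061) and cyclic loess scaling (-0.092). Both intervals reach nearly 2-fold in either direction.

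Timp3, the inhibitor that binds to the matrix and also blocks adamalysin proteases, had 4 probe sets that did not all go the same way. The brightest read 1069 and 813.8 with control siRNA and 1013 and 673.1 with Runx2 siRNA, a difference of -0.17 ± 0.24 (SE). The next read 727.5 and 501.9 against 890.3 and 712.4, a difference of 0.39 ± 0.22, and was the only TIMP probe set higher by more than 0.1. The remaining ones lay at -0.15 ± 0.18 and -0.25 ± 0.19, and in the latter, with 191.5 and 155.7 against 148.3 and 138.0, the groups did not overlap. Adjusted p ran from 0.494 to 0.762 over the 4. No single direction can be given for Timp3 from these probe sets.

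The arrays numbered 1 and 2 differed from each other in several members by more than the siRNA groups did. With control siRNA, number 2 was above number 1 by 1.14 for Mmp16, 1.05 and 0.89 for Timp2 and 0.58 for Mmp2, and with Runx2 siRNA by 0.49, 0.44 and 0.33, and 0.14. Mmp13 and Timp3 went the other way, Mmp13 by -0.39 with control siRNA and -0.90 with Runx2 siRNA and the brightest Timp3 probe set by -0.39 and -0.58. The sign of this difference was the same in both groups for 13 of the 14 tested members, and for 67.1% of all probe sets tested. The control arrays differed by more than the siRNA groups did in 8 of the 14, against 44.0% of all. Mmp13, Mmp11, Mmp19 and both Mmp14 probe sets were among those where the siRNA difference was the larger. The siRNA difference had the same sign in both numbers for 12 of the 14, the exceptions being the Timp2 probe sets, against 69.9% of all.

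**Figure D3:**
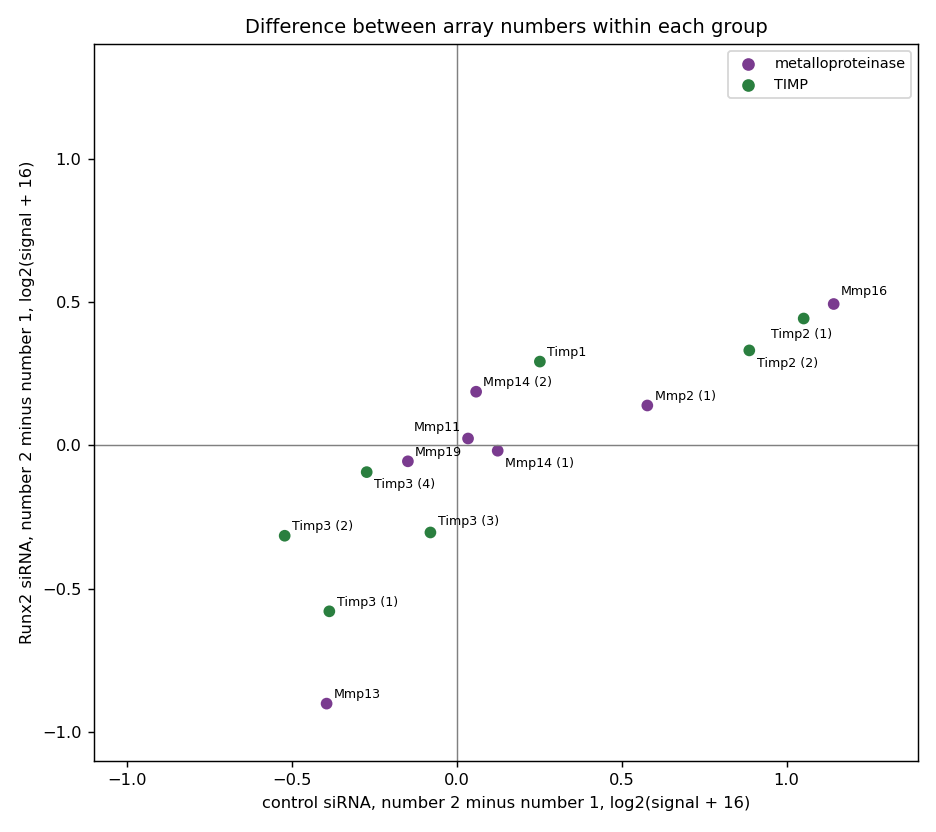
For each tested probe set, the difference between the arrays numbered 2 and 1 with control siRNA (horizontal axis) and with Runx2 siRNA (vertical axis), on the log2(signal + 16) scale, with metalloproteinases and TIMPs in different colours. Mmp16 and Timp2 lie at the upper right, higher in number 2 of both groups, and Mmp13 and Timp3 at the lower left.

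Genes that work with these enzymes were taken from 5 lists, each gene by its brightest tested probe set. None passed over all probe sets by limma, and at an unadjusted p under 0.05 the background over 10017 genes was 5.94% lower and 6.42% higher, with a median difference of 0.05. Of the other metalloproteinases and Timp4, 4 of 11 genes on the array were bright enough to test, and 0 were under that level, with a median of 0.12. Mmp23, a membrane metalloproteinase found in the ovary, differed by 0.38 ± 0.28 (SE) and the membrane-anchored Mmp17 by 0.29 ± 0.23. The Mmp23 groups overlapped, and its dimmer probe sets lay at 0.41 ± 0.23 and 0.04 ± 0.21. The other 2 tested genes of this list were negative, Mmp15 at -0.28 ± 0.21 and Mmp24 at -0.05 ± 0.12.

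Among activators and regulators, 2 of 18 were lower and 1 was higher at an unadjusted p under 0.05, with a median of -0.08. A2m, a plasma inhibitor that traps proteases including metalloproteinases, read 192.0 and 167.2 with control siRNA and 131.5 and 81.0 with Runx2 siRNA, a difference of -0.71 ± 0.27 (SE). Ctsk, the collagen-cutting cathepsin of bone, differed by -0.51 ± 0.19. Serpine2, an inhibitor of the serine proteases that can activate metalloproteinases, differed by 0.56 ± 0.11. Of the adamalysin proteases 1 of 12 was lower and 0 higher, with a median of -0.10. It was Adamts1, which cuts versican at ovulation, at -0.46 ± 0.10. Adam19 lay lower still, at -0.74 ± 0.31, with an unadjusted p of 0.0572 by limma. Dimmer probe sets, outside this count, went both ways, among them Adam19 at -0.81 ± 0.18 and Adamts9 at 0.72 ± 0.24.

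Substrates of the matrix held 2 lower and 2 higher of 25, with a median of 0.09. Spp1, the bone and matrix phosphoprotein osteopontin, which metalloproteinases cleave, read 2433 and 2862 with control siRNA and 1415 and 927.4 with Runx2 siRNA, a difference of -1.19 ± 0.22 (SE). The basement membrane genes did not go together: the laminin chains Lama1 and Lamc1 differed by 0.47 ± 0.11 and -0.27 ± 0.10. A dimmer Lamc1 probe set lay at -0.15 ± 0.13. Nid1, the nidogen that links laminin to collagen, lay at 0.52 ± 0.17, but its other probe set at -0.18 ± 0.38.

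Transcription factors known to act on metalloproteinase promoters had 2 lower and 2 higher of 20 and a median of 0.01. Fosb, a member of the AP-1 family whose letters were found in the Mmp13 window, read 3408 and 4039 with control siRNA and 1558 and 1626 with Runx2 siRNA, a difference of -1.21 ± 0.12 (SE, unadjusted p = 0.000114, adjusted p = 0.248 by limma). By brightest probe set the other listed Fos and Jun genes, Fos, Fosl1, Fosl2, Jun, Junb and Jund, ran from -0.62 (Junb) to 0.19 (Jund). At those probe sets the unadjusted p by limma was above 0.05. Jun also had dimmer probe sets, at -0.29 ± 0.22 and -0.53 ± 0.18, the latter with an unadjusted p of 0.0304 and an adjusted p of 0.389 by limma. Cebpb, which acts in granulosa cells at ovulation, differed by -0.70 ± 0.19, and Smad3, a mediator of activin and TGF-beta signals, by 0.48 ± 0.10. A dimmer Smad3 probe set lay at 0.205 ± 0.19. Runx1, the other Runx factor of these cells, was higher at 2268 and 2044 against 933.0 and 1653, a difference of 0.79 ± 0.27. Its dimmer probe set differed by 1.11 ± 0.24. Whether any of these moved Mmp13 was not tested.

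**Figure D4:**
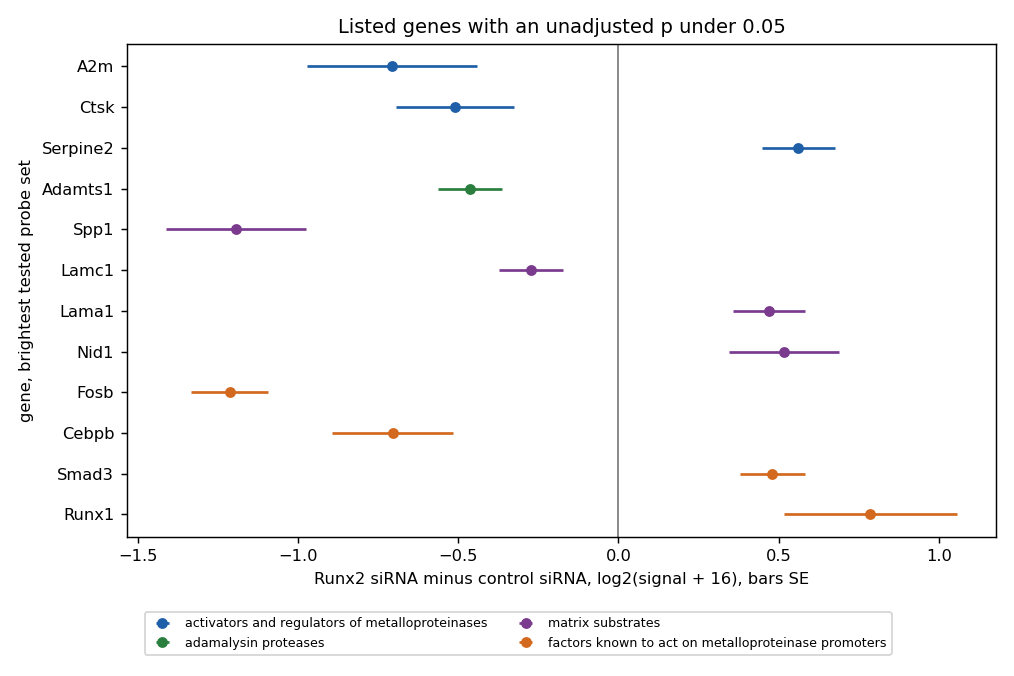
Difference between Runx2 siRNA and control siRNA, on the log2(signal + 16) scale with SE bars (n = 2 arrays per group), of the 12 listed genes whose brightest tested probe set had an unadjusted p under 0.05, coloured by list. Fosb and Spp1 lie lowest, at -1.21 and -1.19, and Runx1 highest, at 0.79.

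The cells carried the defining transcripts of granulosa cells: 13 of 14 listed markers on the array were above the limit for dim probe sets, Foxl2, the granulosa transcription factor, between 5103 and 6569 on every array. The summed signal of the granulosa list was 85700 to 92700 with control siRNA and 98800 to 107000 with Runx2 siRNA. Of the 13 markers 6 were higher and 3 lower without overlap, where 28.8% and 18.5% of all probe sets tested were. The 3 lower were Star, Cyp11a1 and Cyp19a1, the last with a mean signal 0.386 times that of the control. Stromal and leukocyte cells also make Mmp2, Mmp9, Mmp14 and the TIMPs. The summed signals of their lists differed more between the numbers than between the siRNA groups. The 12 theca and stroma markers summed to 1810 and 2840 with control siRNA and 2180 and 2880 with Runx2 siRNA, and the 12 leukocyte markers to 1020 and 1650 against 1330 and 2030. Of these markers 8 of 12 and 6 of 12 had a mean above the limit, among them the collagen Col3a1 at 719.3 to 1275 and the leukocyte receptor Cd14 at 456.1 to 955.6 over the 4 arrays. Both sums were higher in number 2 of each group, but not every marker was. The dimmer markers included Cyp17a1, the defining theca enzyme, lower in number 2 of each group, with 22.74 and 15.98 against 91.7 and 47.2. The leukocyte marker Ptprc was higher in number 2 of each group, with 2.32 and 23.1 against 20.5 and 37.4. The 8 endothelial markers, 2 of them above the limit, summed to 384 and 550 against 556 and 494 and the 5 oocyte markers, 1 of them above it, to 398 and 628 against 584 and 893. The part of such cells in the members' differences was not tested.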

How the data were processed

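Total RNA of 4 cultures was labelled with biotin and hybridised to 1-colour arrays. The authors deposited array intensity as linear signals made with MAS5, per the submitters' processing notes, which as used here name no version. Scaling to a common trimmed mean (2% off each end) hides any change in total RNA. Of the probe sets, 57 array controls were left out, and 0 columns lacked a sample. Signals were taken as log2(signal + 16), and the dimmest 40% by mean signal were not tested. limma 3.58.1 in R 4.3.3 (lmFit, eBayes with an intensity trend, 2 residual and 3.32 prior degrees of freedom) compared the groups from the titles, two-sided, without a term for replicate number, and p was adjusted over all probe sets. The fit was tested on simulated data whose arrays varied independently, which does not cover spread shared by same-numbered arrays. All probe sets of the members are described. From each list up to 6 genes with an unadjusted p under 0.05 are named, otherwise up to 2 with the largest differences, and for Mmp13 the 5 nearest genes. Members, lists and rules were chosen with earlier results of these data known. The alternatives tried added 1 or 64 in place of 16, scaled by quantiles or by cyclic loess, used no filter, a filter on the dimmest 60%, a replicate term or no trend, and left out each array. RefSeq tables (GRCr8) gave current names, which matched for all members, and sequences.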

Additional observations from a re-analysis of the deposited data

How the results depend on the processing

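The 17 member differences were recomputed under 12 alternatives, 204 values in all. In 162 of them the probe set was tested in both fits, and 148 of these kept their direction and their side of the threshold (adjusted p over all probe sets). In the other 42 a dim probe set was not tested in one of the fits or in either, so only the value could be compared, and 33 moved by less than the spread between replicates. The samples share only a number, since the labels do not tie it to a culture. Across probe sets, arrays of the same number deviated from their group means together (r = 0.548, with 2 pairs, over probe sets that are not independent). With the replicate number as a term (replicate block) 1512 probe sets passed over all, 4.84% of those tested lower and 3.28% higher, among them 3 member probe sets: Mmp13 at -1.92 (adjusted p = 0.000877), the dimmer Mmp14 at -0.51 (adjusted p = 0.0171) and Mmp11 at 0.37 (adjusted p = 0.0362), by limma. In that fit 32 of 79 listed genes had an unadjusted p under 0.05 (12 when the term was left off), while the share of all probe sets was 26.1% (11.9% when left off). Under quantile and cyclic loess scaling the dimmer Timp2 probe set turned to -0.0613 and -0.0916. With each array left out in turn, the lone array of a group being assumed to vary like the pair, members with an unadjusted p under 0.05 numbered 3 to 4, where 4.62% to 19.4% of all probe sets had one, and those 2-fold apart with separate groups 1 to 2. Over the same fits the sign turned for Mmp16 (-0.0551 to 1.09), the brighter Mmp2 (-0.0649 to 0.513), Timp2 (-0.483 to 0.570 and -0.426 to 0.461) and 2 probe sets of Timp3 (-0.461 to 0.118 and -0.303 to 0.000516). In 9 cases an untested dim probe set of Mmp2 or Mmp9 moved by more than its spread. The cause of these changes was not tested. Arrays hold no read depth, and the limit for dim probe sets stands in for signal over background.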
